A study of Mus musculus with 40 samples.

Results

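The genes described here are 10 genes of phosphate transport, Klotho signalling and vitamin D metabolism, read in the renal cortex of diabetic Akita mice and their WT littermates. They were picked by symbol from the 55401 gene rows of the count table, where each of the 10 had 1 row, and all 10 passed the filter on low counts in all 10 comparisons. They are the sodium-phosphate cotransporters Slc34a1, Slc34a3, Slc20a1 and Slc20a2, the scaffold protein gene Pdzk1, the Klotho gene Kl and its receptor partner Fgfr1, the vitamin D hydroxylases Cyp27b1 and Cyp24a1, and the vitamin D receptor Vdr.

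RNA depleted of ribosomal RNA was sequenced from the renal cortex of individual male C57BL/6J mice, with 40 libraries in 8 groups of 5. Akita mice were heterozygous for the Ins2-Akita allele, a dominant mutation of an insulin gene that misfolds proinsulin in the beta cell, and were labelled diabetic. Mice of both genotypes received the ethanol vehicle (10% ethanol in water), MitoGamide in that vehicle (10 mg/kg), the water vehicle or MitoQ in water. All 4 treatments were given by oral gavage from 6 to 22 weeks of age, and the labels state no dose for MitoQ. MitoQ is a ubiquinone attached to a lipophilic cation that accumulates in mitochondria, and MitoGamide is a scavenger of reactive dicarbonyls carried into mitochondria in the same way. Since the doses cannot be matched, the compounds were each compared with their own vehicle and not with each other.

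Phosphate is filtered at the glomerulus and taken back in the proximal tubule, mainly by Slc34a1 and Slc34a3 in the brush border, while Slc20a1 and Slc20a2 are more widely expressed. Parathyroid hormone and FGF23 lower the brush border cotransporters, and FGF23 acts through FGF receptors only where Klotho is present. The proximal tubule is also where Cyp27b1 makes calcitriol, the active hormone. Calcitriol acts through Vdr, raises Cyp24a1, which degrades it, and raises the genes that move calcium across the distal tubule. Parathyroid hormone raises Cyp27b1 and FGF23 lowers it.

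The promoters of 3 of the 4 genes that differed between the genotypes are shown so that their base composition and short motifs can be set beside the values. Each line gives the 250 bases before a RefSeq start site on GRCm38.p6, 5′ to 3′ on the gene's strand, and capitals mark every match to the motifs searched. The windows are chr13:55399398-55399647 for Slc34a1, chr2:129198523-129198772 for the upstream start of Slc20a1 and chr10:127047996-127048245 for Cyp27b1, all on the plus strand.
Slc34a1: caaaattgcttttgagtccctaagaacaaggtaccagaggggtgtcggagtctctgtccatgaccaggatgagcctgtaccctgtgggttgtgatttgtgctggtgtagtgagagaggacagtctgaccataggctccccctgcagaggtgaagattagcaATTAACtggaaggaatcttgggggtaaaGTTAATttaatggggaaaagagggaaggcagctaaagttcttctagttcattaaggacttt
Slc20a1: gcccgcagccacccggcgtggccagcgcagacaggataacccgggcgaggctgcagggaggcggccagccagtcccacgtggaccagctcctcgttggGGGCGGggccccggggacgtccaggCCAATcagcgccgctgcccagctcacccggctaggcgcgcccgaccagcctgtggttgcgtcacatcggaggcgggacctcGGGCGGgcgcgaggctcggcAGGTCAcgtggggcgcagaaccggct
Cyp27b1: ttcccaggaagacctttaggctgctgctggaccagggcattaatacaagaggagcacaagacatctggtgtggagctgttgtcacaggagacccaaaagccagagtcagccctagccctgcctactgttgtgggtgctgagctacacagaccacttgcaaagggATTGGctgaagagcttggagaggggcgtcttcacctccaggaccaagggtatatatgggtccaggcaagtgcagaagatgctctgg
RefSeq windows matched 7 of the 10 genes, with 9 start sites in all. Both strands were searched for the half-site of nuclear receptors AGGTCA, the vitamin D receptor repeat (a direct repeat of that half-site with any 3 bases between the copies), the HNF1 half-site GTTAAT, the cAMP response element TGACGTCA, the CCAAT box (letters as named), the TATA box TATAAA, the GC box GGGCGG and the AP-1 site TGANTCA. Slc34a1 held GTTAAT on the plus strand and again on the minus strand (printed ATTAAC), and no other window of the 9 held it, against 6.43% of 32851 windows of all genes. The upstream Slc20a1 window held GGGCGG at 2 places, CCAAT and AGGTCA, and the Cyp27b1 window held CCAAT on the minus strand (printed ATTGG). The nuclear receptor half-site was found in 4 of the 9 windows and in 14% of all windows, GGGCGG in 5 of 9 and 32.7%, and CCAAT in 4 of 9 and 33.8%. The full vitamin D receptor repeat was in 0 of 9 windows and in 2 of all windows (0.00609%), the cAMP response element in 0 of 9 and 1.55%, TATAAA in 0 of 9 and 12.4%, and the AP-1 site in 0 of 9 and 6.75%. The windows differed in base composition, from 46.4% G and C in Slc34a1 to 75.2% in the upstream window of Slc20a1. A match is a description of the letters only.

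Libraries held 9106654 to 24321424 estimated counts, and no 2 were identical. Mitochondrial genes took 14.3% to 49.2% of the counts, with 6 libraries above 35%: Akita water replicates 2 and 5, WT water replicate 3, WT MitoQ replicate 3, Akita MitoQ replicate 2 and Akita MitoGamide replicate 5. Proximal tubule markers (9 genes) summed to 3511 to 15172 CPM (counts scaled to a common library total) in WT mice and to 4936 to 13092 CPM in Akita mice, so the tissue label was borne out in every library. Liver markers (5 genes) stood at 532 CPM in WT water replicate 1 and at most at 93.7 CPM elsewhere. Values below are CPM scaled by trimmed mean of M-values (TMM), and folds are log2 differences from edgeR's quasi-likelihood test, with Benjamini-Hochberg adjusted p-values over all genes tested and a call at an adjusted p under 0.05. The renal cortex holds many cell types, and in bulk RNA fewer cells of a type cannot be told apart from less RNA per cell.

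Levels between genes were compared per kilobase of exon. Among WT mice the median was 802 CPM per kb for Slc34a1, 187 for Pdzk1, 83.5 for Kl, 33.4 for Vdr, 15.4 for Cyp24a1, 13.5 for Slc34a3, 5.20 for Slc20a2, 3.52 for Slc20a1, 3.37 for Fgfr1 and 1.69 for Cyp27b1. Slc34a1 was thus the most abundant of the 10 per length and Cyp27b1 the least. In Akita mice the order of the 4 most abundant genes at their medians was Slc34a1 (685 CPM per kb), Pdzk1 (169.8), Kl (65.2) and Cyp24a1 (33.7), the last just above Vdr (32.6).

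Between the genotypes over all 4 treatments, 4 of the 10 genes differed, against 22.8% of the 17769 genes tested. The 10 genes were chosen with earlier results of these data known, so such counts beside shares of all genes are a description. Slc20a1, Cyp27b1 and Cyp24a1 were higher in Akita mice (10.9% of all genes were called higher) and Slc34a1 was lower (11.9% were called lower). The median log2 difference was 0.07 over the 10 genes and -0.02 over all genes. Each of these 4 genes was called in 40 of 40 fits that left out 1 library, and had the same sign in 4 of 4 treatments. With the mitochondrial share as a covariate, Slc34a1 and Slc20a1 kept that sign in 4 of 4 treatments, but the sign turned for Cyp27b1 with ethanol (-0.49) and MitoGamide (-0.32) and for Cyp24a1 with MitoGamide (-1.02). The test of whether the genotype effect depended on treatment called 0 of the 10 genes and 0 genes in all with edgeR, with an unadjusted p under 0.05 for 0 of the 10 genes and for 4.97% of all genes. The adjusted p was 1.00 for each of the 10. DESeq2's likelihood ratio test called 0 of the 10 as well.

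**Figure D1:**
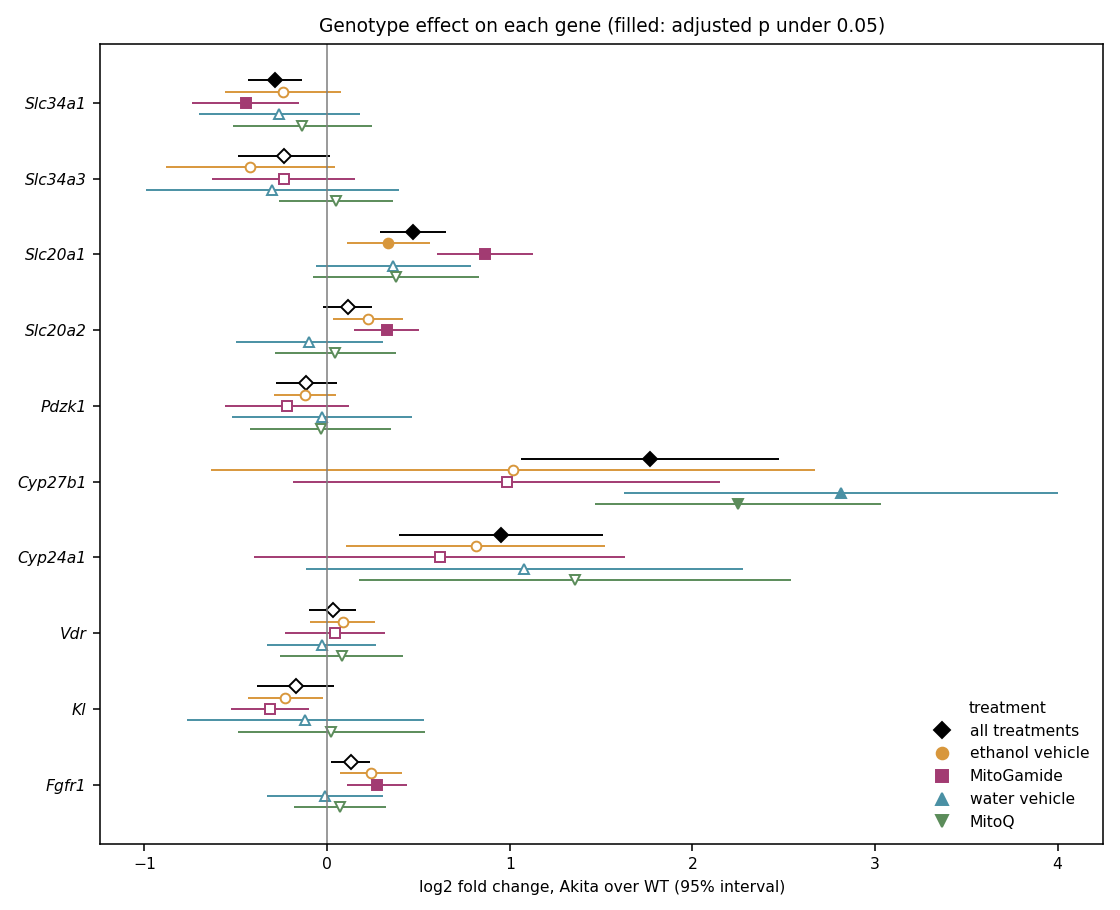
Log2 fold change of Akita over WT mice (x axis) for each of the 10 genes (y axis), over all treatments and within each, with 95% intervals; filled symbols passed an adjusted p under 0.05 in edgeR's test. Slc20a1, Cyp27b1 and Cyp24a1 lay to the right of 0 and Slc34a1 to the left in 5 of 5 estimates, with pooled values of 0.47, 1.77, 0.95 and -0.29.

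Slc34a1 (ENSMUSG00000021490.11, chr13:55398187-55415592, plus strand, GRCm38) encodes the main phosphate cotransporter of the proximal tubule brush border. With the ethanol vehicle it stood at 4095, 3451, 4627, 4635 and 3318 CPM in WT mice and at 3993, 3918, 2964, 2472 and 3451 CPM in Akita mice. With MitoGamide the WT mice had 3749, 3680.2, 4132, 4040.5 and 3232 CPM and the Akita mice 2715, 2433, 2854, 3259.7 and 2227 CPM. The ethanol groups overlapped broadly, whereas under MitoGamide 1 Akita mouse exceeded the lowest WT mouse. With the water vehicle the values were 3749, 4597, 3802, 3969 and 3707 CPM in WT mice and 3537, 3586, 3213, 2603 and 3610.4 CPM in Akita mice. With MitoQ they were 3234, 4227, 3441, 3005 and 3373 CPM in WT mice and 3345, 2953, 3335, 2867 and 3191 CPM in Akita mice. Every Akita mouse on water was below every WT mouse on water, while the MitoQ groups overlapped.

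Over all treatments Slc34a1 fell by 0.29 on the log2 scale in Akita mice (SE 0.07, 95% interval -0.43 to -0.14, adjusted p = 0.00317, 0.82-fold). Within treatments the difference was -0.24 with ethanol (adjusted p = 0.295), -0.45 with MitoGamide (SE 0.14, adjusted p = 0.0465), -0.26 with water (adjusted p = 0.989) and -0.14 with MitoQ (adjusted p = 0.943). Only the MitoGamide difference was called, and it was kept only without Akita replicate 4 or 5 or WT replicate 5 among the 10 fits that left out a mouse (adjusted p from 0.0275 to 0.109), and not with no filter (-0.44, adjusted p = 0.0572). By mean level the 4 Akita groups were the 4 lowest of the 8, from 2698 CPM ± 398 (SD, n = 5) in Akita mice on MitoGamide to 4025 CPM ± 626 (SD, n = 5) in WT mice on ethanol. Of the 9 proximal tubule markers, Slc27a2 (-0.47) and Lrp2 (-0.38) were lower in Akita mice and 7 were not called. Across the 40 libraries Slc34a1 had a Pearson r of 0.20 with the log2 sum of these markers and -0.23 with the mitochondrial share. Its pooled difference was -0.30 (adjusted p = 0.00227) with that share as a covariate and -0.27 (adjusted p = 0.0093) without the 6 libraries above 35%. The part of proximal tubule content in the Slc34a1 difference was not tested.

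Slc34a3 (ENSMUSG00000006469.13, chr2:25228898-25234364, minus strand) encodes the second brush border cotransporter, mutated in hereditary hypophosphatemic rickets with hypercalciuria. It ranged from 22.7 to 46.3 CPM in the 20 WT mice (median 31.9) and from 12.0 to 48.5 CPM in the 20 Akita mice (median 28.8). The ranges overlapped, and the log2 difference of -0.24 (SE 0.12, 95% interval -0.49 to 0.01, adjusted p = 0.176) was not called. Its lowest values were in Akita mice, at 12.0 CPM in ethanol replicate 4, 13.5 CPM in water replicate 5 and 13.7 CPM in MitoGamide replicate 2.

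Slc20a1 (ENSMUSG00000027397.14, chr2:129198764-129211616, plus strand) encodes a widely expressed phosphate importer that is also a retrovirus receptor. With the ethanol vehicle the WT mice had 19.3, 18.0, 20.5, 26.4 and 18.5 CPM and the Akita mice 26.5, 23.9, 27.4, 22.2 and 28.0 CPM. With MitoGamide the WT mice had 15.03, 14.8, 14.6, 20.3 and 19.8 CPM and the Akita mice 29.1, 28.7, 29.9, 27.2 and 36.2 CPM. The MitoGamide groups did not overlap, and in the ethanol groups 1 WT mouse lay among the Akita mice. With the water vehicle the values were 18.3, 31.9, 24.1, 19.5 and 22.0 CPM in WT mice and 34.0, 29.1, 32.1, 19.2 and 35.1 CPM in Akita mice. With MitoQ they were 22.5, 18.0, 39.4, 20.3 and 16.5 CPM in WT mice and 32.4, 23.5, 26.6, 29.4 and 35.9 CPM in Akita mice. Apart from WT replicate 3, which was the highest of all 40, every WT mouse on MitoQ lay below every Akita mouse on MitoQ.

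Slc20a1 was higher by 0.47 on the log2 scale over all treatments (SE 0.09, 95% interval 0.29 to 0.65, adjusted p = 0.000112, 1.39-fold). With ethanol the difference was 0.34 (adjusted p = 0.046; 0.19 with the mitochondrial share as a covariate, adjusted p = 0.424), the only 1 of the 10 genes called in that comparison, where 16.4% of genes were called, and 0 of the 10 had ethanol groups that did not overlap, against 12.7%. Among the 10 fits that left out a mouse, it was kept only without Akita replicate 4 or WT replicate 4 (adjusted p from 0.00509 to 0.101). It was not called with all 40 libraries in one fit (0.32, adjusted p = 0.401) or with the replicate number as a block (0.34, adjusted p = 0.0786). With MitoGamide the difference was 0.86 (SE 0.12, 95% interval 0.60 to 1.13, adjusted p = 0.00135), called in 10 of 10 such fits. With water it was 0.36 (adjusted p = 0.793) and with MitoQ 0.38 (adjusted p = 0.691). Without the 2 MitoQ libraries above 35% mitochondrial counts, the MitoQ difference was 0.68 with an adjusted p of 0.0335. Across the 40 libraries Slc20a1 had a Pearson r of 0.53 with the mitochondrial share, and its pooled difference was 0.39 (adjusted p = 0.000586) with that share as a covariate.

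Slc20a2 (ENSMUSG00000037656.9, chr8:22476788-22569612, plus strand) encodes the related importer whose loss causes brain calcification. Values ran from 22.1 to 42.5 CPM in WT mice and from 24.30 to 45.3 CPM in Akita mice, and the pooled difference of 0.11 (SE 0.07, adjusted p = 0.244) was not called. With MitoGamide the WT mice had 30.8, 32.9, 33.7, 31.2 and 29.5 CPM and the Akita mice 37.4, 40.5, 36.3, 34.3 and 45.3 CPM. Those groups did not overlap, and the difference of 0.33 was called (SE 0.08, adjusted p = 0.0228), though not without Akita replicate 2 or WT replicate 1 or 4 (adjusted p up to 0.0572) or with all 40 libraries in one fit (0.30, adjusted p = 0.152). With the mitochondrial share as a covariate the pooled difference was 0.22 (adjusted p = 0.00379). The ethanol groups overlapped, with a difference of 0.22 (adjusted p = 0.103).

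**Figure D2:**
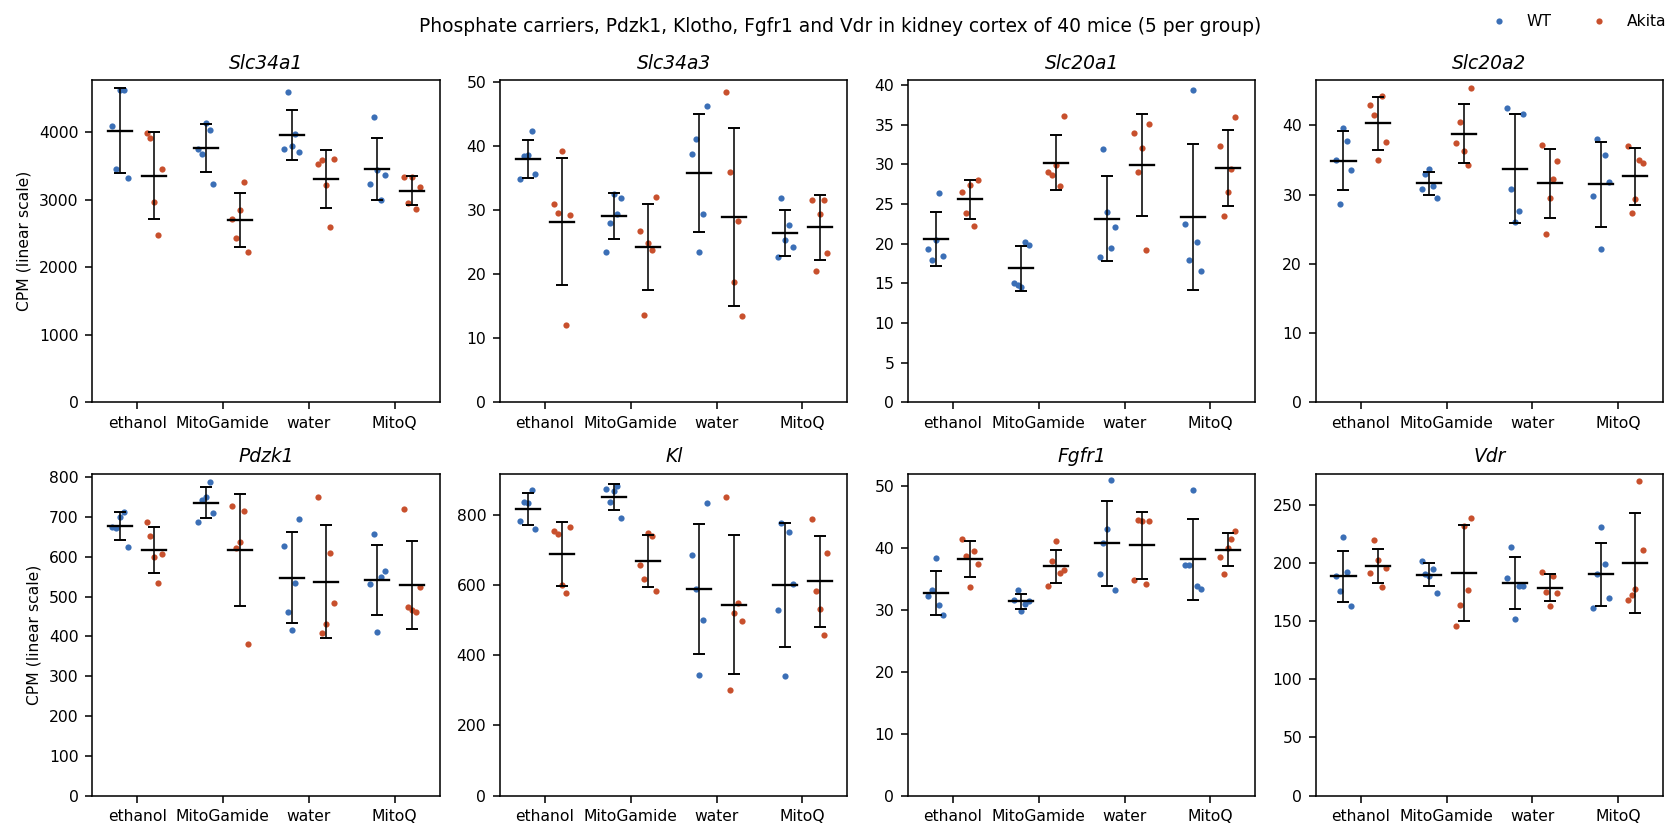
CPM on a linear scale (y axis) of 8 genes in each of 40 mice, by treatment (x axis) and genotype (colour), with group mean and SD bars (n = 5). Under MitoGamide the Akita mice had 27.2 to 36.2 CPM of Slc20a1 against 14.6 to 20.3 CPM in WT mice, and Kl spread most in the water and MitoQ groups.

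Pdzk1 (ENSMUSG00000038298.14, chr3:96829284-96870926, plus strand) encodes a PDZ scaffold that binds Slc34a1 and other brush border transporters. It ranged from 411 to 789 CPM in WT mice and from 380.2 to 749.8 CPM in Akita mice, with a pooled difference of -0.11 (SE 0.08, 95% interval -0.28 to 0.05, adjusted p = 0.355). The difference was negative in 4 of 4 treatments but was called in 0 of them. Pdzk1 was low where the mitochondrial share was high: its median was 414 CPM in the 6 libraries above 35% and 645 CPM in the other 34. With the mitochondrial share as a covariate its pooled difference was 0.01.

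Kl (ENSMUSG00000058488.7, chr5:150952607-150993817, plus strand) encodes Klotho, the membrane protein that turns FGF receptors into FGF23 receptors and is made mainly in the distal convoluted tubule and also in the proximal tubule. With the ethanol vehicle the WT mice had 782, 836, 834, 871 and 759 CPM and the Akita mice 755, 746, 600.1, 577 and 765 CPM. With MitoGamide the WT mice had 875, 837, 868, 882 and 791 CPM and the Akita mice 657, 617, 749, 739 and 582 CPM. All 5 Akita mice on MitoGamide lay below all 5 WT mice on MitoGamide, and in the ethanol groups only the lowest WT mouse lay within the Akita range. On water the WT mice ran from 343 to 834 CPM and the Akita mice from 299.7 to 851 CPM. On MitoQ the WT mice ran from 341 to 776 CPM and the Akita mice from 459 to 789 CPM. Those 4 groups overlapped over most of their width.

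The pooled Kl difference of -0.17 was not called (SE 0.10, 95% interval -0.38 to 0.04, adjusted p = 0.252), nor were those with ethanol (-0.23, adjusted p = 0.124) and MitoGamide (-0.31, SE 0.10, adjusted p = 0.054). The MitoGamide difference was called by DESeq2 (adjusted p = 0.00644), with RLE scaling (adjusted p = 0.0485), with a filter of 10 counts in every library (adjusted p = 0.0383) and without Akita replicate 4 (-0.36, adjusted p = 0.0445). Kl followed the libraries' makeup more closely than any other of the 10 genes, with a Pearson r of 0.90 with the log2 sum of proximal tubule markers and -0.73 with the mitochondrial share. Its median was 420.1 CPM in the 6 libraries above 35% mitochondrial counts and 751 CPM in the other 34, and with that share as a covariate the pooled difference was 0.01.

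Fgfr1 (ENSMUSG00000031565.18, chr8:25513654-25575718, plus strand) encodes the FGF receptor most often named as the partner of Klotho in the kidney. Its levels ran from 29.1 to 50.9 CPM in WT mice (median 33.2) and from 33.6 to 44.5 CPM in Akita mice (median 38.6). The pooled difference of 0.13 was not called by edgeR (SE 0.05, 95% interval 0.02 to 0.24, adjusted p = 0.0773) and was called by DESeq2 (adjusted p = 0.0301) and in 15 of 40 edgeR fits that left out a mouse (adjusted p from 0.00684 to 0.121). With the mitochondrial share as a covariate it was 0.08 (adjusted p = 0.239), and without the 6 libraries above 35% mitochondrial counts it was 0.17 and called (adjusted p = 0.016). In the MitoGamide groups the WT mice had 31.6, 33.2, 29.9, 31.0 and 31.4 CPM and the Akita mice 33.8, 37.8, 41.1, 36.0 and 36.5 CPM. These did not overlap, and the difference of 0.27 was called (SE 0.08, adjusted p = 0.0321), but among fits that left out a mouse only without Akita replicate 1 or 5 or WT replicate 5 (adjusted p from 0.0233 to 0.0799). It was not called with no filter (0.28, adjusted p = 0.0967), with the replicate number as a block (0.27, adjusted p = 0.0606) or with all 40 libraries in one fit (0.24, adjusted p = 0.142). In the ethanol groups it was 0.24 and not called (adjusted p = 0.0563). DESeq2 called the ethanol difference (0.24, adjusted p = 0.0474), as did edgeR with 10 counts in every library (0.24, adjusted p = 0.0473). Of 10 fits that left out a mouse, 2 called it: without Akita replicate 3 (0.28, adjusted p = 0.0299) and without WT replicate 3 (0.30, adjusted p = 0.0133). WT MitoQ replicate 3, the library with the highest mitochondrial share, had 49.3 CPM against 33.3 to 37.2 CPM in the other 4 of its group, and without it the pooled difference was 0.18 with an adjusted p of 0.00684.

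Under MitoGamide, 4 of the 10 genes were called between the genotypes (Slc34a1, Slc20a1, Slc20a2 and Fgfr1) against 14.3% of the 16674 genes tested, and 4 had groups that did not overlap (Slc20a1, Slc20a2, Fgfr1 and, lower, Kl) against 12.8%. With the mitochondrial share as a covariate 1 of the 4 calls was left, that of Slc20a1 (0.84, adjusted p = 0.0381). Fgfr1 kept its size without passing the test (0.28, adjusted p = 0.176), while Slc34a1 was at -0.30 (adjusted p = 0.41) and Slc20a2 at 0.19 (adjusted p = 0.35). The mitochondrial share was 24.6% to 27.8% in WT mice and 28.0% to 35.4% in Akita mice on MitoGamide, so within this treatment it cannot be told apart from the genotype.

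Cyp27b1 (ENSMUSG00000006724.12, chr10:127048250-127053006, plus strand), the mitochondrial enzyme that makes calcitriol, had the largest difference of the 10 genes. With the ethanol vehicle the WT mice had 1.99, 7.73, 27.8, 7.31 and 7.01 CPM and the Akita mice 10.0, 4.95, 79.2, 11.2 and 5.01 CPM. With MitoGamide the WT mice had 4.01, 4.71, 8.02, 8.02 and 10.2 CPM and the Akita mice 12.8, 8.90, 2.18, 9.26 and 37.0 CPM. Both pairs of groups overlapped, and Akita ethanol replicate 3 and WT ethanol replicate 3 stood far above their groups. With the water vehicle the values were 2.01, 7.09, 3.80, 3.29 and 4.68 CPM in WT mice and 67.9, 25.2, 9.93, 33.2 and 9.77 CPM in Akita mice. With MitoQ they were 2.35, 2.98, 0.865, 3.40 and 1.01 CPM in WT mice and 9.12, 5.90, 8.65, 15.9 and 12.8 CPM in Akita mice. In these last 2 treatments every Akita mouse was above every WT mouse.

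Over all treatments Cyp27b1 was higher by 1.77 on the log2 scale in Akita mice (SE 0.35, 95% interval 1.06 to 2.47, adjusted p = 0.000181, 3.41-fold). With water the difference was 2.81 (SE 0.54, 95% interval 1.63 to 4.0, adjusted p = 0.0461), the only 1 of the 10 genes called, against 0.552% of the 18304 genes tested. Besides Cyp27b1, only Slc34a1, lower in Akita mice, had groups that did not overlap on water, against 2.51% of genes. With MitoQ the difference was 2.25 (SE 0.36, 95% interval 1.47 to 3.03, adjusted p = 0.015), again the only 1 called and the only 1 with groups that did not overlap, against 0.557% and 2.85% of the 18143 genes tested. Among the 10 fits that left out a mouse, the water call was kept only without Akita replicate 3 or 5 (adjusted p from 0.0294 to 0.147) and was not made without the 3 water libraries above 35% mitochondrial counts, where the difference was 3.11 (adjusted p = 0.196), nor with the mitochondrial share as a covariate, where it was 2.90 (adjusted p = 0.0625). The MitoQ call was kept in 8 of 10 fits that left out a mouse and lost without Akita replicate 5 (adjusted p = 0.0574) or WT replicate 1 (adjusted p = 0.0548). With all 40 libraries in one fit the MitoQ difference was again 2.25 but was not called (adjusted p = 0.148), and with the replicate number as a block the water difference was 2.45 (adjusted p = 0.189).

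With ethanol the Cyp27b1 difference of 1.02 was not called (SE 0.77, adjusted p = 0.411), and without Akita replicate 3 it was -0.42. With the mitochondrial share as a covariate it was -0.49 (adjusted p = 0.805). With MitoGamide the difference was 0.98 (SE 0.54, adjusted p = 0.236), and from 0.24, without Akita replicate 5, to 1.27, without Akita replicate 3, in the fits that left out a mouse, and -0.32 (adjusted p = 0.832) with that covariate. In counts the gene was thin, with 4 to 1131 per library, and the WT MitoQ libraries held 4 to 42. Its r with the mitochondrial share was 0.04 over the 40 libraries, and the pooled difference was 1.69 (adjusted p = 0.00081) with that share as a covariate and 1.68 (adjusted p = 0.00085) without the 6 libraries above 35%.

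Cyp24a1 (ENSMUSG00000038567.5, chr2:170482708-170497145, minus strand), the enzyme that inactivates calcitriol, was also higher in Akita mice. With the ethanol vehicle the WT mice had 51.8, 37.1, 21.9, 41.1 and 80.1 CPM and the Akita mice 56.4, 123, 83.5, 102 and 37.6 CPM. With MitoGamide the WT mice had 101, 92.4, 44.5, 63.5 and 90.9 CPM and the Akita mice 55.9, 34.3, 195, 61.8 and 244 CPM. Under MitoGamide the Akita mice spread on both sides of the WT mice, 3 below the WT median and 2 above all WT mice. With the water vehicle the values were 56.8, 143, 41.8, 26.0 and 168 CPM in WT mice and 356, 124, 77.9, 246 and 117 CPM in Akita mice. With MitoQ they were 39.7, 53.1, 193, 109 and 24.0 CPM in WT mice and 286, 59.0, 138, 281 and 285 CPM in Akita mice. All 4 pairs of groups overlapped.

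The pooled Cyp24a1 difference was 0.95 (SE 0.28, 95% interval 0.39 to 1.51, adjusted p = 0.00983, 1.93-fold). It was 0.91 (adjusted p = 0.0128) with the mitochondrial share as a covariate and 1.09 (adjusted p = 0.00222) without the 6 libraries above 35%. Within treatments the difference was 0.81 with ethanol (adjusted p = 0.112), 0.62 with MitoGamide (adjusted p = 0.394), 1.08 with water (adjusted p = 0.75) and 1.36 with MitoQ (adjusted p = 0.444), and 0 of 4 were called by edgeR, with an unadjusted p under 0.05 for ethanol and MitoQ and 0 calls by DESeq2. The MitoGamide difference ran from 0.19, without Akita replicate 5, to 0.85, without Akita replicate 2, in the fits that left out a mouse, and was 0.35 without Akita replicate 3. It turned to -1.02 (adjusted p = 0.338) with the mitochondrial share as a covariate. That share did not overlap between the 2 MitoGamide groups, so there it cannot be told apart from the genotype. The ethanol difference was called without Akita replicate 5 (0.99, adjusted p = 0.0454) or WT replicate 5 (1.11, adjusted p = 0.0328). Without the 2 MitoQ libraries above 35% mitochondrial counts the MitoQ difference was 2.13 with an adjusted p of 0.0303.

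**Figure D3:**
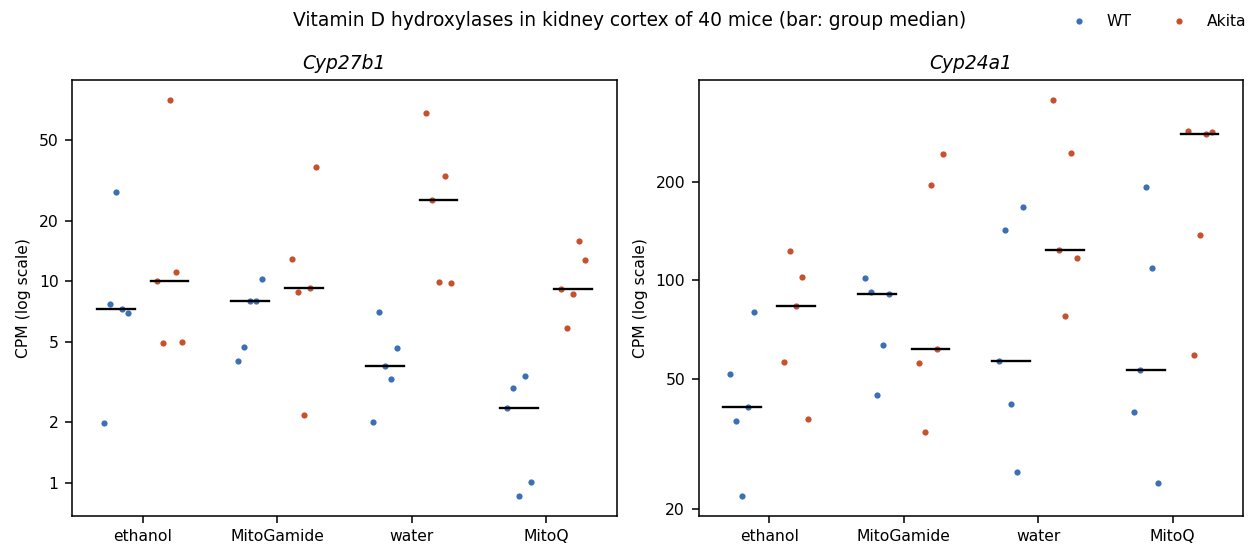
CPM on a log scale (y axis) of Cyp27b1 and Cyp24a1 in each of 40 mice, by treatment (x axis) and genotype (colour), with group medians as bars (n = 5). For Cyp27b1 the Akita mice lay above all WT mice on water (9.77 to 67.9 CPM against 2.01 to 7.09 CPM) and on MitoQ (5.90 to 15.9 CPM against 0.865 to 3.40 CPM), and the Cyp24a1 groups overlapped in each treatment.

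Vdr (ENSMUSG00000022479.15, chr15:97854425-97910630, minus strand), the nuclear receptor through which calcitriol acts, had the pooled genotype difference nearest to 0 of the 10 genes. It ranged from 152 to 231 CPM in WT mice (median 189) and from 146 to 271 CPM in Akita mice (median 184), with a pooled difference of 0.03 (SE 0.06, 95% interval -0.10 to 0.16, adjusted p = 0.799). Vdr also had 0 calls in the comparisons within treatments, by edgeR and by DESeq2, with 0 unadjusted p-values under 0.05.

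When the 8 groups were ordered by mean level, neighbours in the order had overlapping ranges in 70 of 70 pairs over the 10 genes. Sorting by the mean places groups of like level side by side, so overlap of neighbours is likely from the sorting itself. The count does not bear on groups further apart in the order.

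None of the 10 genes was called for either compound by edgeR's test. MitoGamide against its vehicle in Akita mice gave 0 calls of 10, against 1.26% of 17051 genes, and 1 of the 10 had an unadjusted p under 0.05 against 20.9% of genes, with 0 of 10 pairs of groups that did not overlap against 7.55%. That gene was Slc20a1, which was 0.24 higher (SE 0.09, 95% interval 0.04 to 0.44, adjusted p = 0.166). In WT mice MitoGamide gave 0 calls, against 0% of 17395 genes, with an unadjusted p under 0.05 for 3 of the 10 and for 10.6% of genes. Slc34a3 was 0.39 lower (SE 0.09, adjusted p = 0.307), from 34.9, 38.4, 38.7, 42.4 and 35.7 CPM with the vehicle to 23.5, 27.9, 32.5, 29.3 and 31.9 CPM with MitoGamide. These groups did not overlap, which held for 1 of the 10 genes and for 2.27% of all genes, and DESeq2 called this gene (adjusted p = 0.0311). The mitochondrial share of these WT mice did not overlap either, at 20.1% to 22.6% with the vehicle and 24.6% to 27.8% with MitoGamide. Slc20a1 differed by -0.28 and Cyp24a1 by 0.76, with adjusted p-values of 0.469 and 0.38 in edgeR's test. The Slc20a1 estimates with MitoGamide thus had opposite signs in the genotypes, and the interaction test named above did not call this gene.

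MitoQ against water gave 0 calls of 10 in Akita mice, against 0% of 18496 genes, and 0 in WT mice, against 0% of 17881 genes. An unadjusted p under 0.05 was found for 1 of the 10 in Akita mice (1.96% of genes) and for 2 in WT mice (3.22% of genes), and DESeq2 called 0 of the 10 in both. Groups that did not overlap were found for 0 of the 10 in Akita mice (0.314% of genes) and 0 in WT mice (0.928%). In Akita mice Cyp27b1 was 1.49 lower on MitoQ (SE 0.49, 95% interval -2.55 to -0.43, adjusted p = 0.999), with 5.90 to 15.9 CPM against 9.77 to 67.9 CPM on water. That estimate ran from -1.71 to -0.91 in the fits that left out a mouse. In WT mice Cyp27b1 was 0.94 lower and Slc34a3 0.44 lower, with adjusted p-values of 1.00 in both. Each vehicle group served both as the control of its compound and in the genotype comparisons, so these estimates share mice.

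Genes of the same pathways were read from 6 further lists. These lists were chosen with earlier results of these data known, so their counts beside shares of all genes are a description. Of 7 genes of transcellular calcium transport, which calcitriol raises, 6 were higher in Akita mice over all treatments and Atp2b1 was not called (10.9% of all genes were called higher), with a median log2 difference of 0.56 over the list. Within treatments 4 of 7 were called higher with ethanol (16.4% of all genes were called in either direction) and 5 with MitoGamide (14.3%), while edgeR called 0 with water (0.552%) and with MitoQ (0.557%), where an unadjusted p was under 0.05 for 6 and 5. Calb1, a calcium-binding protein of the distal tubule, was 1.00 higher (SE 0.15, adjusted p = 3.5e-06), with 95.3 to 357 CPM in WT mice and 217 to 1399.8 CPM in Akita mice. S100g, a smaller calcium-binding protein, was 0.85 higher (SE 0.13, adjusted p = 7.09e-06), and the calcium channel gene Trpv6 was 0.86 higher (SE 0.15, adjusted p = 4.16e-05) at 0.375 to 2.35 CPM. The calcium pump gene Atp2b4 was 0.49 higher (SE 0.06, adjusted p = 1.96e-07). Its groups did not overlap on water (2.51% of all genes) and MitoGamide (12.8%). Some markers of the cells that carry these genes were higher in Akita mice too. These were 2 of 4 distal convoluted tubule markers (Calb1 itself and Trpm6, with Slc12a3 and Pvalb not called) and 4 of 4 principal cell markers. The distal convoluted tubule markers summed to 685 to 1851 CPM in WT and 1056 to 2063 CPM in Akita mice and the principal cell markers to 51.4 to 216 CPM and 146 to 271 CPM, with 0 markers absent from all libraries. Calb1 is in both lists, so the distal convoluted tubule sum includes its counts and is not independent of its difference. The part of these markers in the calcium gene differences was not tested.

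Among 9 other phosphate carriers, scaffolds and exit genes, 1 was higher and 3 were lower in Akita mice, 4 of 9 against 22.8% of all genes. Slc17a3, an organic anion carrier of the proximal tubule that belongs to the phosphate carrier family, fell by 1.04 (SE 0.10, adjusted p = 9.46e-10), from 260.2 to 498 CPM in WT mice to 98.3 to 298 CPM in Akita mice. Its relative Slc17a1 fell by 0.45 (adjusted p = 0.0023), and Pdzd3, a PDZ scaffold gene of the family of Pdzk1, fell by 0.28 (adjusted p = 0.0073). Ezr, which links scaffolds to actin, was 0.15 higher (adjusted p = 0.0261). The other 5 were not called. Within treatments 3 of 9 were called with ethanol (16.4% of all genes) and 3 with MitoGamide (14.3%), all lower, and edgeR called 0 with water (0.552%) and MitoQ (0.557%) (unadjusted p under 0.05 for 2 and 1).

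Of 12 genes for parathyroid hormone, calcium and FGF receptors, their G proteins and Klotho sheddases, 10 were tested, 1 was higher and 2 were lower, 3 of 10 against 22.8% of all genes. Fgfr2 was 0.30 higher (SE 0.05, adjusted p = 4.88e-05), Fgfr4 fell by 0.36 (SE 0.09, adjusted p = 0.00304) and the calcium-sensing receptor gene Casr fell by 0.35 (SE 0.08, adjusted p = 0.00113). Pth1r, the parathyroid hormone receptor gene, differed by -0.28 (SE 0.11) and was not called (adjusted p = 0.0521). The other 2 were below the count filter. With ethanol 2 of 10 were called higher and 1 lower (16.4% of all genes were called) and with MitoGamide 2 were called higher (14.3%), and edgeR called 0 with water (0.552%) and MitoQ (0.557%) (unadjusted p under 0.05 for 2 in each). Of 8 feedback genes of FGF signalling through ERK, 7 were tested and 0 were called over all treatments by edgeR, with an unadjusted p under 0.05 for 2 (Spry4 and Spred1), and the 4 with the smallest p were Spry4 (-0.24), Spred1 (-0.19), Dusp6 (-0.14) and Spry1 (-0.14), with adjusted p-values of 0.0872, 0.114, 0.227 and 0.274. Within treatments Spred1 was lower in Akita mice with ethanol (-0.24, adjusted p = 0.0297, against 16.4% of all genes called) and Egr1, an early growth response gene named here after its values were seen, was higher with MitoGamide (0.95, adjusted p = 0.0133, against 14.3%). With water and MitoQ edgeR called 0, with an unadjusted p under 0.05 for 0 and 2.

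Of 12 genes of vitamin D uptake, activation and receptor partners, 2 were higher and 6 were lower in Akita mice, 8 of 12 against 22.8% of all genes, while within treatments edgeR called 4 of 12 with ethanol (16.4% of all genes), 2 with MitoGamide (14.3%) and 0 with water (0.552%) and MitoQ (0.557%) (unadjusted p under 0.05 for 5 and 2). Gc, the vitamin D binding protein gene, was 1.52 higher (SE 0.30, adjusted p = 0.000209), with 9.62 to 25.7 CPM in WT mice and 10.2 to 169 CPM in Akita mice. Cyp27a1, a mitochondrial sterol hydroxylase, was 0.49 higher (SE 0.09, adjusted p = 8.51e-05). Cyp2r1, the main vitamin D hydroxylase of the liver, fell by 0.52 (SE 0.14, adjusted p = 0.00524), and Lrp2, the megalin gene whose product takes up filtered vitamin D with its binding protein, fell by 0.38 (SE 0.12, adjusted p = 0.014). Of 8 mineral hormones and modifiers, 7 were tested, 3 were higher and 1 was lower, 4 of 7 against 22.8% of all genes, with 4 called with ethanol (16.4% of all genes) and 1 each with MitoGamide (14.3%), water (0.552%) and MitoQ (0.557%). Stc1, a stanniocalcin gene, was 1.41 higher (SE 0.14, adjusted p = 3.82e-10), with 2.03 to 5.18 CPM in WT mice and 4.32 to 21.4 CPM in Akita mice. It was called in 4 of 4 treatments. Its groups did not overlap on ethanol (12.7% of all genes), water (2.51%) and MitoQ (2.85%), while 1 Akita mouse on MitoGamide (4.32 CPM) lay within the WT range (up to 4.45 CPM). Stc2 was 0.43 higher (adjusted p = 0.00306), the phosphatase gene Alpl was 0.46 higher (adjusted p = 0.000976) and the kinase gene Fam20c fell by 0.25 (adjusted p = 0.0214).

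**Figure D4:**
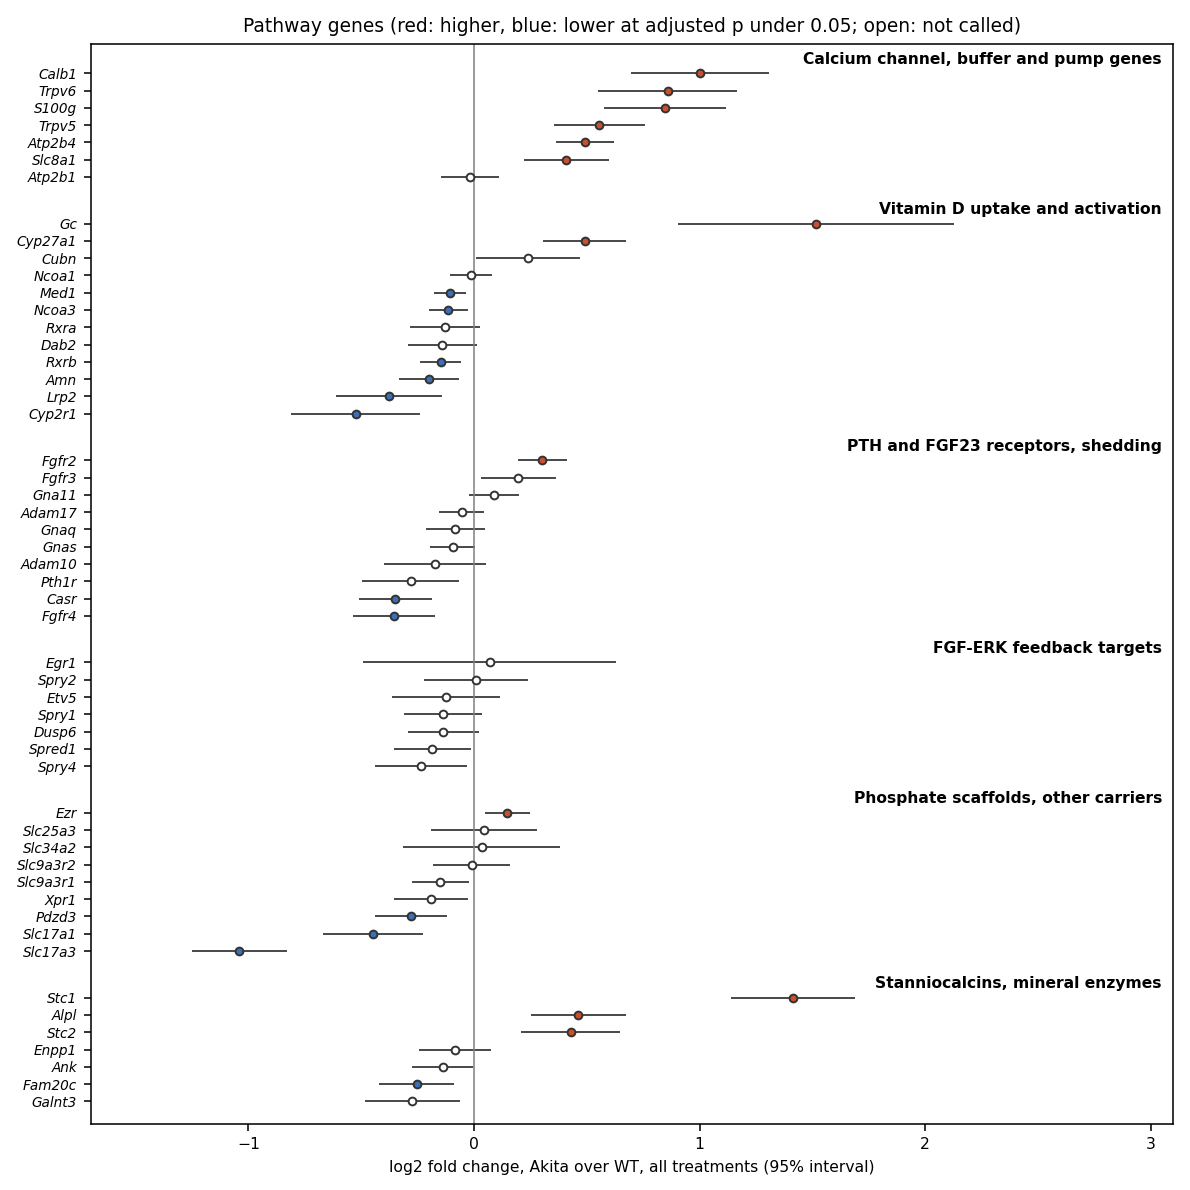
Log2 fold change of Akita over WT mice over all treatments (x axis, 95% interval) for the tested genes of 6 pathway lists (y axis), with colour for genes called higher or lower in edgeR's test. In the calcium transport list 6 of 7 genes lay to the right of 0 and were called, and Stc1 (1.41), Gc (1.52) and Slc17a3 (-1.04) had the widest shifts of the other lists.

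**Figure D5:**
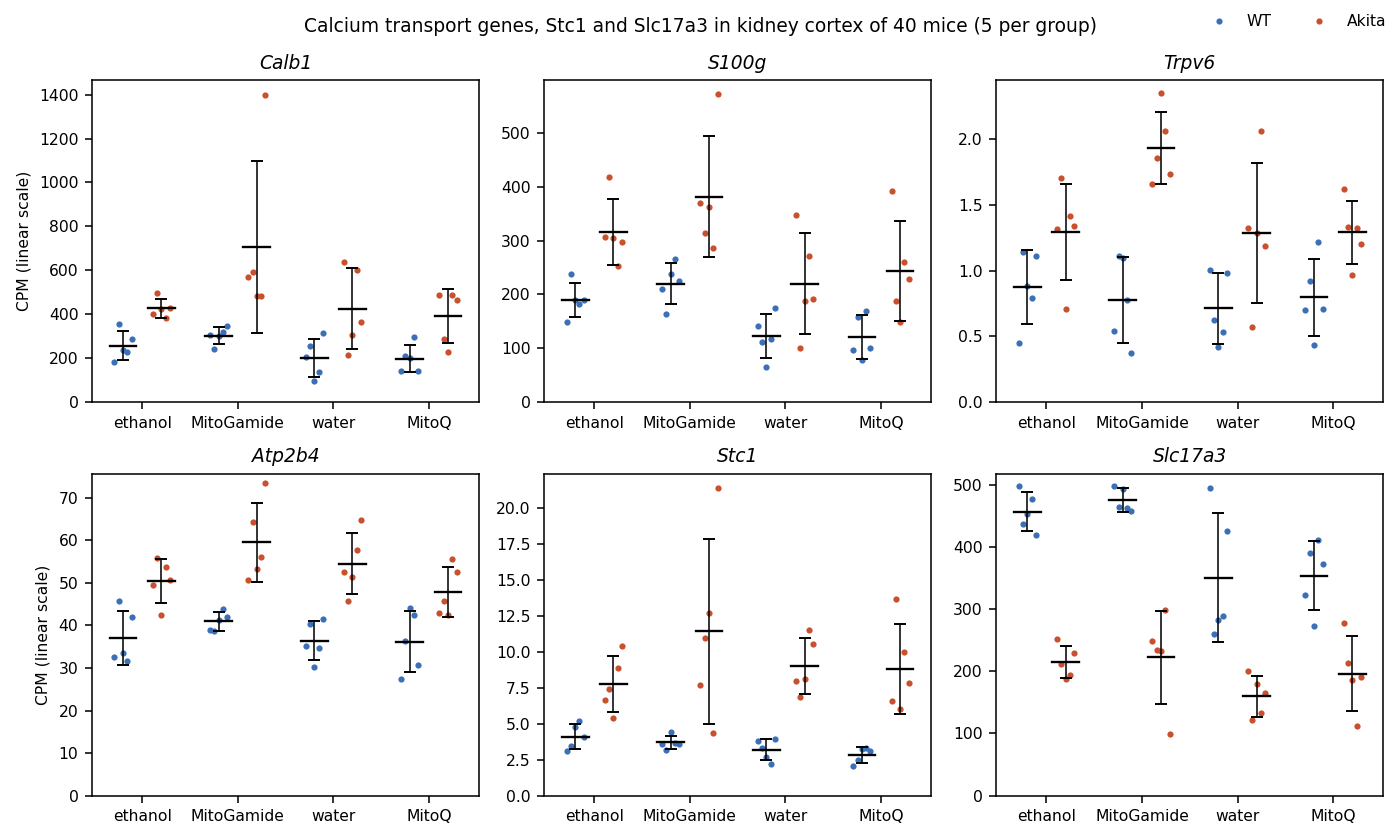
CPM on a linear scale (y axis) of 6 pathway genes in each of 40 mice, by treatment (x axis) and genotype (colour), with group mean and SD bars (n = 5). Stc1 was 4.32 to 21.4 CPM in Akita and 2.03 to 5.18 CPM in WT mice, and Slc17a3 was lower in Akita mice in each treatment, with overlap only on MitoQ. Of all genes, 12.7% had groups that did not overlap on ethanol, 12.8% on MitoGamide and 2.51% on water.

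MitoGamide in Akita mice changed 0 genes of these 6 lists at an adjusted p under 0.05 by edgeR's test, with an unadjusted p under 0.05 for 10 of the 53 genes tested, against 20.9% of all genes. The smallest p in each list belonged to Slc17a1 (0.16, adjusted p = 0.29), Fgfr3 (-0.36, adjusted p = 0.0646), Spred1 (0.29, adjusted p = 0.0668), Amn (-0.41, adjusted p = 0.0611), Atp2b1 (0.17, adjusted p = 0.139) and Galnt3 (0.21, adjusted p = 0.26). All 8 FGF feedback genes and all 7 calcium transport genes had positive estimates in this comparison, with medians of 0.17 and 0.26 against -0.0021 over all genes. Estimates of cell type markers in the same comparison went both ways. They were positive for 4 of 4 endothelial markers (median 0.57), 3 of 3 fibroblast markers (median 0.39), 3 of 3 immune markers (median 0.22) and 4 of 4 principal cell markers (median 0.20). Of the endothelial markers, 3 had groups that did not overlap (7.55% of all genes) and 1 was called (1.26%), Cdh5 (0.55, adjusted p = 0.0478). The estimates were negative for 3 of 4 distal convoluted tubule markers (median -0.09) and 7 of 9 proximal tubule markers (median -0.04), and mixed in the thick ascending limb (3 of 4 positive, median 0.03) and intercalated cells (2 of 4 positive, median 0.06). Of the 4 liver genes tested, 3 had positive estimates (median 0.15). The mitochondrial share of these Akita mice was 21.6% to 28.7% with the vehicle and 28.0% to 35.4% with MitoGamide. Their proximal tubule markers summed to 11061 to 13092 CPM with the vehicle and 8559 to 11230 CPM with MitoGamide. The part of these markers and of the mitochondrial share in the list estimates was not tested.

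The genes whose log2 CPM was most like that of each of the 10 over the 40 libraries were listed as a description, with Pearson r and no test, since the libraries share treatment, genotype and mitochondrial share. For Slc34a1 they were Xylb (0.82), Slc26a1 (0.82) and Pla2g6 (0.81), and Stk39 was the most opposite (-0.81). For Slc34a3 they were Ass1 (0.80), Slc5a2 (0.80), the glucose cotransporter of the early proximal tubule, and Fam151a (0.76), with Specc1 opposite (-0.65). The 2 brush border cotransporters thus had other neighbours in this measure.
For Slc20a1 they were Wdr62 (0.80), Epha2 (0.79) and Plk3 (0.79), with Entpd7 opposite (-0.81). Slc20a2 was most like Dgat2 (0.89), Tmem53 (0.87) and Mpdu1 (0.87), with Baz1b opposite (-0.87). Fgfr1 was most like Sptb (0.84), Dlgap4 (0.83) and Piezo1 (0.83), with Med13 opposite (-0.87).
Kl had the closest neighbours of the 10, with Slc16a12 (0.95), Fbxo22 (0.94) and Pmpcb (0.94), and Nrbp2 opposite (-0.91), and Pdzk1 followed with Rnaseh2b (0.93), Gopc (0.91) and Rpl36al (0.90), and Apbb3 opposite (-0.86). Cyp27b1 was most like Gldc (0.77), Acot3 (0.73) and Asl (0.73), with Parp8 opposite (-0.75). Cyp24a1 had Mab21l3 (0.69), Gprin3 (0.66) and Gm49602 (0.66), with Slc1a4 opposite (-0.68), and Vdr had Bcl2l11 (0.64), Creb3l3 (0.64) and Gm43189 (0.63), with Kank4 opposite (-0.62). Among the 10 genes themselves, deviations from the group means correlated most between Kl and Pdzk1 (r = 0.78) and between Kl and Slc20a2 (r = 0.70), and the r between Cyp27b1 and Cyp24a1 was 0.17.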

How the data were processed

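Renal cortex RNA of 40 mice (8 groups of 5) was depleted of ribosomal RNA and made into directional libraries by the authors, who trimmed single-end reads with Skewer at a Phred minimum of 20, mapped them with kallisto 0.46.1 to Gencode mouse release 25 transcripts and summed transcripts to genes in R 4.0.2. The strand setting of kallisto is not given in the sources used here. The deposited values are estimated counts (expected counts) per gene, not normalized, given as whole numbers and used as deposited. Groups came from the genotype and treatment labels, and each library came from an individual animal.

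Genes that averaged 10 or more counts across a fit's libraries were tested with edgeR 4.0.16 (R 4.3.3) by the quasi-likelihood F-test after TMM scaling, with Benjamini-Hochberg adjustment over all genes tested. Akita and WT mice were compared over 4 treatments with all 40 libraries, as the mean of the within-treatment differences, and within each treatment with 10. Each compound was compared with its vehicle within genotype, and the interaction was tested over 3 degrees of freedom. The fits were tested on simulated data. DESeq2 1.42.0, RLE scaling, no filter, 10 counts in every library, the replicate number as a block, a fit of all 40 libraries and leaving out each mouse were alternatives. The mitochondrial share as a covariate and the fit without libraries above 35% were added after the data were seen.

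The genes and the lists were chosen with earlier results of these data known. All 10 genes are named, with at most the 4 genes of each list with the smallest p between the genotypes over all treatments and the 1 with the smallest p for MitoGamide in Akita mice. Egr1 is named outside that rule, and cell type markers and correlated genes are named besides. Gene positions and exon lengths are from GENCODE release 21 (GRCm38), which held 99.5% of the gene IDs, and promoters are from RefSeq (GRCm38.p6). Groups were called not overlapping on the TMM scale of the libraries compared, and printed CPM are scaled over all 40. Cyp24a1 overlaps Pfdn4 on the opposite strand, and Pdzk1, Slc20a1, Slc20a2 and Fgfr1 also overlap other genes, so reads of these may be shared.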

Additional observations from a re-analysis of the deposited data

Results flagged for a closer look

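In groups of 5, the most extreme mouse was set against the others by Dixon's test at 95% (gap over range above 0.71). Of 104 groups and measures tested, 7 stood out, and 5.2 were expected from chance at 1 in 20. WT MitoQ replicate 3 stood apart for Slc20a1 (39.4 CPM against 16.5 to 22.5 CPM), for Fgfr1 (49.3 CPM against 33.3 to 37.2 CPM) and for the mitochondrial share (49.2% against 24.7% to 28.3%). Cyp27b1 stood apart in replicate 3 of both ethanol groups, at 27.8 CPM against 1.99 to 7.73 CPM in WT mice and at 79.2 CPM against 4.95 to 11.2 CPM in Akita mice. Pdzk1 in Akita MitoQ replicate 1 was 721 CPM against 462 to 524 CPM in the other 4 mice. Olfactory and vomeronasal receptor genes, which the kidney is not known to use at high levels, summed to 1061 CPM in Akita ethanol replicate 4 against 752 to 825 CPM in the rest of its group.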

How the results depend on the processing

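Over all treatments, 4 of the 10 genes were called and 4 to 5 when each mouse was left out. Leaving out a mouse gave 0 to 1 calls with ethanol, 0 to 1 with water, 1 to 4 with MitoGamide, 0 to 1 with MitoQ and 0 in each compound comparison and the interaction. With ethanol, 1 call became 2 with DESeq2 or 10 counts in every library, where Fgfr1 was added, and 0 with all 40 libraries in one fit (Slc20a1 at 0.32 against 0.34). With water, 1 call became 0 without libraries above 35% mitochondrial counts or with the mitochondrial share as a covariate, where Cyp27b1 was at 2.90 against 2.81. With MitoGamide, 4 calls became 2 without a filter, 1 with the mitochondrial covariate and 2 with all 40 libraries in one fit. With MitoQ, 1 call became 0 with 10 counts in every library, where Cyp27b1 was not tested, 3 without libraries above 35% and 0 with all 40 libraries in one fit (Cyp27b1 at 2.25 in both). MitoGamide in WT mice went from 0 calls to 1 with DESeq2 (Slc34a3). Replicate numbers are shared between groups but no comparison had a correlation over 0.1 in all 5 numbers (-0.451 to 0.655 per number), so they were not taken as pairs. With the replicate block the calls were 4 over all treatments, 0 with ethanol, 0 with water, 3 with MitoGamide and 1 with MitoQ. Signs turned with the mitochondrial covariate for Pdzk1 (0.0096) and Kl (0.011) over all treatments, Cyp27b1 with ethanol (-0.49) and MitoGamide (-0.32) and Cyp24a1 with MitoGamide (-1.02). Leaving out a mouse turned the sign of 30 of 90 estimates (10 genes in 9 comparisons), of which 0 were called with all mice. Among them were Cyp27b1 for MitoGamide in Akita mice (-0.67, range -1.38 to 0.81) and in WT mice (-0.58, range -0.83 to 0.22). Signs also turned without Akita ethanol replicate 3 for Cyp27b1 with ethanol (-0.42, against up to 1.83 without another mouse) and without Akita MitoQ replicate 4 for Vdr over all treatments (-0.0032, against up to 0.072). Except where a gene was not tested, the causes were not tested. Over all genes the calls were 4052 over all treatments (3511 to 6487 under alternatives), 2910 with ethanol (844 to 3116), 101 with water (8 to 547), 2386 with MitoGamide (537 to 3082), 101 with MitoQ (48 to 415), 214 for MitoGamide in Akita mice (0 to 1022), 0 in WT mice (0 to 73), 0 for MitoQ in Akita mice (0 to 3), 0 in WT mice (0 to 18) and 0 for the interaction (0 to 13). Among the 10 genes depth limited Cyp27b1 most, with 4 counts in its thinnest library.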

Other observations

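Markers of some other cell types are given from the same fit over all treatments. Among endothelial markers Pecam1 (0.27) and Cdh5 (0.28) were higher in Akita mice, Emcn was lower (-0.22) and Kdr was not called. Umod, the uromodulin gene of the thick ascending limb, fell by 0.50, and the other 3 markers of that segment were not called. The leukocyte gene Ptprc (-0.55) and the macrophage gene Adgre1 (-0.43) were lower, Cd68 was not called and Cd3e was below the count filter. Of 3 fibroblast markers only Dcn (0.42) was called, and 0 of 4 intercalated cell markers were called by edgeR. Of 5 liver genes read as a check for RNA of another organ, Apoh (-2.58) and Ttr (-0.98) were lower in Akita mice and 3 were not called. Apoh was called lower in 4 of 4 treatments (-2.19 with ethanol, -2.25 with MitoGamide, -3.55 with water and -2.25 with MitoQ) and Ttr with ethanol (-0.97), where Serpina1a was called higher (1.28). WT water replicate 1, with the highest liver marker sum, had 16.1 CPM of Apoh against 2.51 to 7.42 CPM in its group, and its part in the liver values was not tested.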
